A study of Homo sapiens with 4 samples.

Results

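The ATP-binding cassette (ABC) transporters were examined in clones of the megakaryoblastic cell line Meg-01 with a knockdown of the transcription factor GATA1. Their probes were every non-control probe of the array whose gene name is ABC followed by a letter from A to G and a number. The rule used names alone, and it found 47 of the 30484 gene names tested, measured by 68 of the 40974 probes. GATA1 5-13 and GATA1 4-14 each descend from 1 soft-agar colony of puromycin-resistant cells that carry a lentiviral shRNA against GATA1, so that each is 1 clone. GATA1 Neg is a pool of Meg-01 cells transduced with a lentivirus for a negative control shRNA, so that each clone was compared with a pool, and clonal differences and the knockdown cannot be told apart. RNA of each clone was hybridized against RNA of GATA1 Neg on 2 two-colour Agilent arrays with the dyes in opposite orientation. Every log2 ratio below is the knockdown clone over GATA1 Neg, a clone's value is the mean of its 2 arrays and counts as 1 replicate, and the number of clones is 2. The value of a clone alone has no test, and differences between the clones were not tested.

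ABC transporters couple ATP hydrolysis to the movement of a substrate across a membrane, and their subfamilies differ in cargo. Subfamily A carries mostly lipids, B and C include exporters of drugs, bile salts, peptides and conjugated anions, D serves peroxisomes and lysosomes, and G moves sterols, urate and drugs, whereas the E and F proteins lack membrane domains and act in translation. ABCB1 (P-glycoprotein), ABCC1 (MRP1) and ABCG2 (breast cancer resistance protein) are known as exporters of anticancer drugs, and daunorubicin, which is used against acute myeloid leukemia, is a substrate of ABCB1. The study addressed the part of GATA1 in the drug response of megakaryocytic leukemia cells.

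The GATA1 probe (chrX:48535797-48536559, hg18) gave -0.21 and -0.34 (log2 ratio, array by array) for GATA1 5-13 and -0.43 and -0.58 for GATA1 4-14. The knockdown clones were at 82.7% and 70.55% of GATA1 Neg, and the mean, -0.39 ± 0.16 (SD, n = 2 clones), did not pass limma's test (adjusted p = 0.605). The study chose both clones for decreased GATA1 by real-time RT-PCR and Western blot, which are other measures than this array probe. Knockdown RNA was well above background at 60.7 to 65.6% of probes and control RNA at 61.1 to 65.0%. Over all probes, log2 ratios correlated at 0.806 between the arrays of GATA1 5-13, at 0.641 between those of GATA1 4-14 and at 0.171 to 0.409 between arrays of different clones. Of 10 megakaryocyte genes, 9 were on the array and 7 were above background on at least 1 array, among them the integrin gene ITGA2B, while PF4 and VWF never were. Of 8 genes of other blood cells, 6 were above background on at least 1 array, and MPO and MS4A1 were not. The extraction text of the labels names CMK, another megakaryoblastic line, where all other labels name Meg-01.

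ABC transporter RNA was detected unevenly across the subfamilies. Both RNAs were well above background on all 4 arrays at 33 of the 68 probes, 48.5%, which stand for 22 of the 47 genes, against 58.1% of all probes tested. A further 8 probes were above background on some arrays or in 1 RNA, and 27 probes never were. All probes of subfamilies E (2 probes, ABCE1) and F (4 probes, ABCF1, ABCF2 and ABCF3) were measured in both RNAs on every array, as were 4 of 5 in subfamily D. Subfamily B had 8 of 14 such probes, subfamily C 10 of 22, subfamily A 4 of 16 and subfamily G 1 of 5, the probe of ABCG2. The 18 genes that were never well above background were ABCA4, ABCA6, ABCA12, ABCA13, ABCB4, ABCB5, ABCB9, ABCB11, ABCC3, ABCC8, ABCC9, ABCC11, ABCC12, ABCD2, ABCG1, ABCG4, ABCG5 and ABCG8. They include the bile salt exporter ABCB11 and the sterol transporters ABCG5 and ABCG8, which are known from liver and intestine, and the photoreceptor transporter ABCA4.

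**Figure D1:**
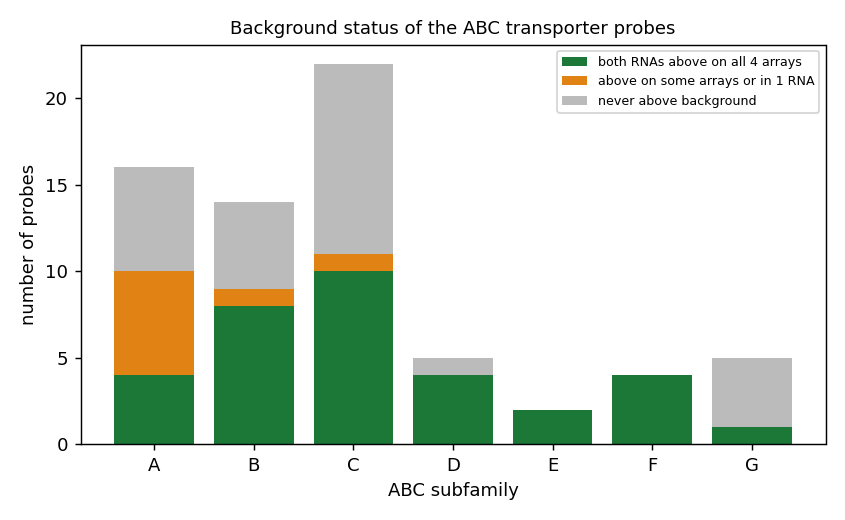
The stacked bars give the number of probes (y axis) in each ABC subfamily (x axis) by background status, in green both RNAs well above background on all 4 arrays, in orange above background on some arrays or in 1 RNA, and in grey never. Subfamilies E and F are green throughout, while 4 of the 5 subfamily G probes and 11 of the 22 subfamily C probes are grey.

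The ABC transporter probes did not shift together. For GATA1 5-13 the median of the 68 log2 ratios was 0.04 and for GATA1 4-14 it was 0.0052, beside -0.0021 and 0.00017 over all probes, and their spread (SD over probes) was 0.25 and 0.21, beside 0.29 and 0.20. By subfamily, the medians in GATA1 5-13 and GATA1 4-14 were 0.07 and 0.03 for A, 0.13 and 0.03 for B, 0.03 and -0.03 for C, -0.14 and 0.11 for D, -0.07 and 0.01 for E, 0.07 and -7.3e-05 for F, and -0.04 and -0.07 for G. These medians include probes that were not above background, whose ratios carry little signal. Over the probes measured in both RNAs everywhere, they were 0.16 and 0.11 for the 4 of A, 0.38 and 0.06 for the 8 of B, 4 of which are of ABCB10, 0.04 and -0.02 for the 10 of C, -0.24 and 0.11 for the 4 of D, and -0.43 and -0.33 for ABCG2 alone in G. All probes of E and F were measured, and their medians stay as given.

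No ABC transporter probe passed limma's test of the mean of the clones at an adjusted p of 0.05, and 0 of all 40974 probes did (0%). At the study's unadjusted p of 0.005, 0 ABC transporter probes were lower (0.574% of all probes) and 0 higher (0.327% of all probes). At an unadjusted p under 0.05 there were 6 of 68, 8.82%, beside 7.42% of all probes. The 3 lower ones were the probe of ABCG2 and 2 of ABCC4 (4.04% of all probes were lower), and the 3 higher ones were 2 of ABCB10 and a probe of ABCA1 with control RNA that was never above background (3.38% of all probes were higher). Among the 33 probes measured in both RNAs everywhere, 5 were under 0.05 (15.2%, beside 10.5% of all such probes), 3 lower (5.61%) and 2 higher (4.89%), and 0 reached 0.005 in either direction (0.723% of all such probes were lower and 0.45% higher). An error-weighted mean of the scanner's own log ratios, which takes each array's error for the whole spread, called 10 of the 68 ABC transporter probes at an adjusted p of 0.05. Of all probes, 8.62% were called. The 10 were of ABCA1, ABCA5, ABCA8, ABCA9, ABCB1, ABCB10, ABCC4, ABCC5 and ABCG2. Of them, 2 were lower and 8 higher, and the shares of all probes in each direction were not counted.

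Measured ratios of at least 1.5-fold, with the same sign on both arrays of a clone, were seen at 3 ABC transporter probes in GATA1 5-13, of ABCA1, ABCA5 and ABCB1, all higher than in GATA1 Neg (1.69% of all probes were), and at 0 lower (2.55% of all probes were). Of these, the control RNA of ABCA1 was above background on 0 of 2 arrays, and that of ABCA5 on 1 of 2. With the control RNA of ABCA1 counted at no less than the lowest level marked well above background, its ratio was 1.48-fold. This is not a strict limit. In GATA1 4-14 there was 1 higher, of ABCA8 (0.949% of all probes), and 0 lower (0.893% of all probes). Among the 33 probes measured in both RNAs everywhere, ABCB1 was the only one past 1.5-fold in GATA1 5-13 (2.31% of all such probes were higher and 3.79% lower) and ABCA8 the only one in GATA1 4-14 (1.09% higher and 1.23% lower).

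**Figure D2:**
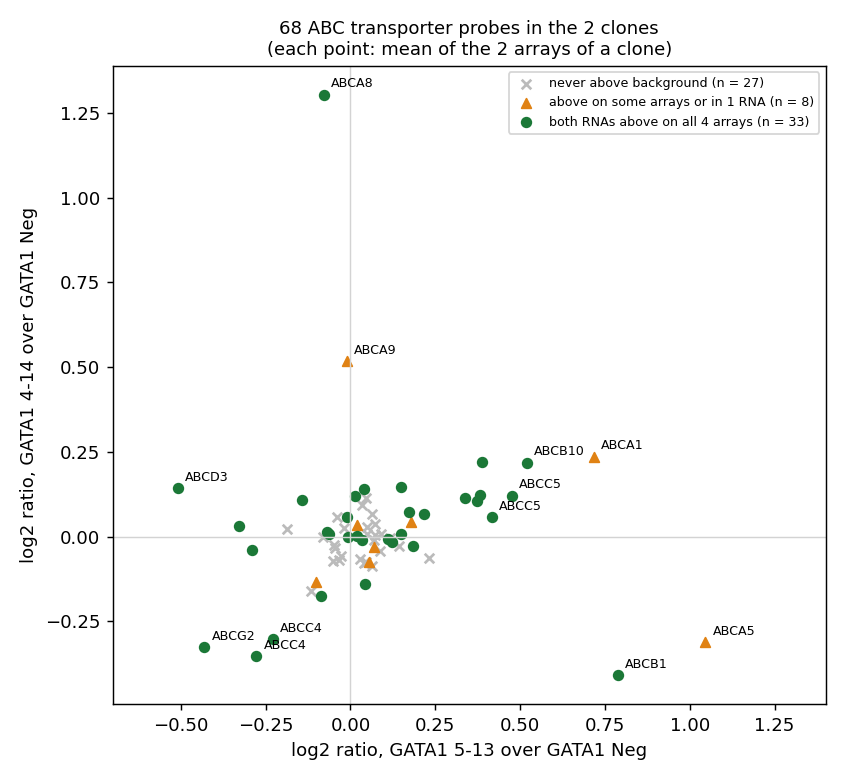
Each point is 1 of the 68 ABC transporter probes, with the log2 ratio of GATA1 5-13 over GATA1 Neg on the x axis and that of GATA1 4-14 on the y axis, each the mean of 2 arrays, and the marker gives the background status. ABCB1 lies at 0.79 and -0.41 and ABCA8 at -0.08 and 1.30, while ABCG2 at -0.43 and -0.33 is low in both clones.

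Of the drug-efflux transporters, ABCB1 was higher in GATA1 5-13 and lower in GATA1 4-14, ABCG2 was lower in both, and ABCC1 was close to 0. The array carries 1 probe for each, and all were well above background in both RNAs on all 4 arrays. ABCB1 was measured by 10 spots of the same probe on every array (A_23_P82523, chr7:86973249-86976539, hg18). Whether the probes lie in coding exons or untranslated regions was not analysed here, as no hg18 annotation was used.

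For ABCB1 both arrays of GATA1 5-13 read high, with log2 ratios of 0.71 and 0.87, and both arrays of GATA1 4-14 read low, with -0.47 and -0.34. The clones lay on opposite sides of GATA1 Neg, at 173% and 75.3% of its level. Of all probes measured in both RNAs everywhere, 9.27% were likewise higher on both arrays of GATA1 5-13 and lower on both of GATA1 4-14. The 10 spots ranged from 0.67 to 0.76 and from 0.82 to 0.92 on the arrays of GATA1 5-13, and from -0.53 to -0.43 and from -0.40 to -0.29 on those of GATA1 4-14. Their SD within an array was 0.03 to 0.04, which is the error of spots and not of cell cultures. The mean of the clones was 0.19 ± 0.85 (SD, n = 2 clones), and it did not pass limma's test (adjusted p = 0.916), although the error-weighted mean called it. Since the clones were set against the same pool, both values share its RNA, and a change in the share of cells that express ABCB1 cannot be told apart from a change in RNA per cell. Within 500 kb of the probe, 13 probes of 9 other genes had medians of -0.02 in GATA1 5-13, with a range of -0.22 to 0.55, and of 0.09 in GATA1 4-14, with a range of -0.16 to 0.36.

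ABCG2 (A_23_P18713, chr4:89232450-89232509, hg18) read low throughout, with log2 ratios of -0.35 and -0.51 for GATA1 5-13 and -0.26 and -0.39 for GATA1 4-14. It was lower than GATA1 Neg on 4 of 4 arrays, at 74.2% and 79.8% of its level. The mean was -0.38 ± 0.07 (SD, n = 2 clones), the difference was not past the threshold after adjustment (limma, adjusted p = 0.563), and the unadjusted p was 0.008. ABCG2 thus had the smallest unadjusted p among the ABC transporter probes and did not reach 0.005 in limma's test, although the error-weighted mean called it. The study set its threshold of 0.005 on p-values of its own error model, which are not the same measure. The 13 probes of 9 other genes within 500 kb had medians of 0.27 in GATA1 5-13 and -0.09 in GATA1 4-14.

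ABCC1 (A_24_P227831, chr16:16143525-16143584, hg18) gave log2 ratios of -0.03 and 0.11 for GATA1 5-13 and 0.03 and 0.25 for GATA1 4-14. Its clone values of 0.04 and 0.14 were smaller than the gap between the arrays of the same clone, and the mean was 0.09 ± 0.07 (SD, n = 2 clones), which did not pass limma's test (adjusted p = 0.764).

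**Figure D3:**
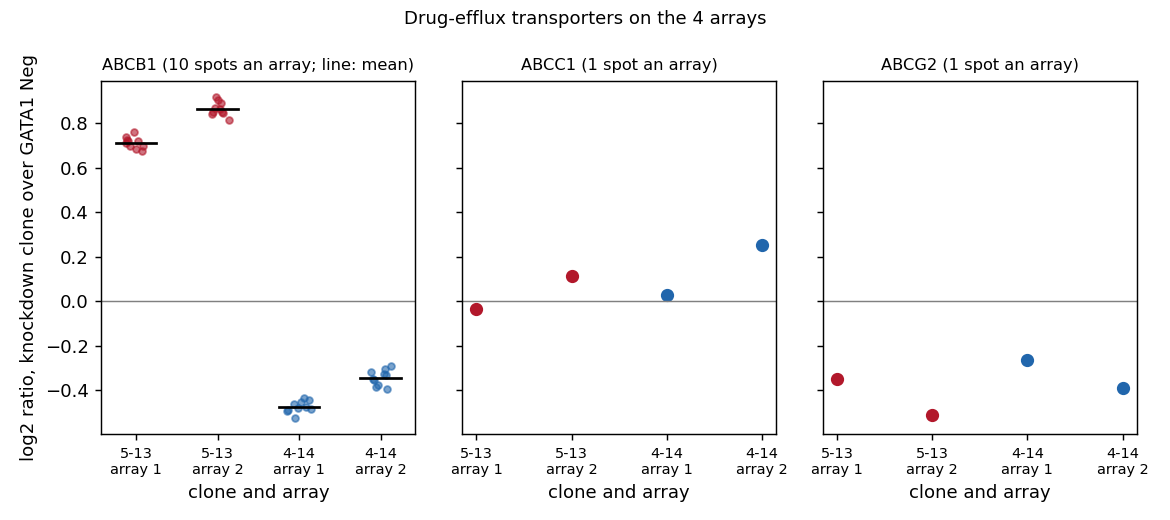
Log2 ratios of the knockdown clones over GATA1 Neg (y axis) are plotted for each of the 4 arrays (x axis) for ABCB1, ABCC1 and ABCG2, with GATA1 5-13 in red and GATA1 4-14 in blue. For ABCB1 the points are 10 spots of the probe and the line is their mean, above 0 in GATA1 5-13 and below 0 in GATA1 4-14, and for ABCG2 all 4 points are below 0.

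The regions before the starts of ABCB1 and ABCG2 are shown because GATA1 binds DNA at GATA motifs, and those of ABCA1 and ABCA5 because, after ABCA8, they had the highest positive mean log2 ratios among the genes named by the rule, each with a dim clone or control in that mean. Each is 250 bases before an annotated start on the minus strand, from RefSeq (GRCh38.p14), written 5′ to 3′, and capitals mark a match to the GATA motif on either strand, that is GATAA with A or T before it, or the same with G as its last base. The pair of ABCB1 starts was added after its values were seen. The ABCG2 window printed has no other listed start within it, which also holds for others of the 5 ABCG2 windows.
ABCB1, chr7:87600885-87601134: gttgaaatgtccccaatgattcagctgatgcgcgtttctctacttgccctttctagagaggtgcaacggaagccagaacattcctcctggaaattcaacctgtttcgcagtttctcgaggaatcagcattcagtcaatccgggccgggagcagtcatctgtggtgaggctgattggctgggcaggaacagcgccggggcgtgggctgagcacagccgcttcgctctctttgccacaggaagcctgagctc
ABCB1, chr7:87713296-87713545: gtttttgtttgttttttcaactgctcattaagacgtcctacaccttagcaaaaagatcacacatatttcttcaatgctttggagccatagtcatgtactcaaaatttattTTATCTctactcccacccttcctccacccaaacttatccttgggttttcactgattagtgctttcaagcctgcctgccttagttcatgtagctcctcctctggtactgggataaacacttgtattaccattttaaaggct
ABCG2, chr4:88159291-88159540: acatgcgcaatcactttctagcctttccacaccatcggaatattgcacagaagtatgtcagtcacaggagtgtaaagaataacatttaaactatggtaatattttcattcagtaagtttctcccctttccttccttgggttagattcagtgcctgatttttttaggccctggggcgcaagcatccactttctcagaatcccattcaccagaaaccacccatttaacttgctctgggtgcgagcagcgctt
ABCA1, chr9:104928156-104928405: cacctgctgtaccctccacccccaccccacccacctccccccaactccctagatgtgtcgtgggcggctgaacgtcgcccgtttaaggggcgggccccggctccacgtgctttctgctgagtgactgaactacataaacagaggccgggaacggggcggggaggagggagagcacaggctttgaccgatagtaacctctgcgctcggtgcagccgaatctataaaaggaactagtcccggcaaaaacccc
ABCA5, chr17:69327134-69327383: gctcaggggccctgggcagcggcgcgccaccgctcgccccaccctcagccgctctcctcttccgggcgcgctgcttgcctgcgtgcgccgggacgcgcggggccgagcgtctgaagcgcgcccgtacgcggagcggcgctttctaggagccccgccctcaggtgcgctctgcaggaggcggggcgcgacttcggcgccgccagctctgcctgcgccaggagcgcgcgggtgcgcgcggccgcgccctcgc
A match was found in the window of the upstream ABCB1 start, as TTATCT 140 bases before it, and in none of the other printed windows or of the 5 windows of ABCG2. In all, 35 of the 47 gene names had an entry, with 53 windows, of which 9 (17.0%) in 8 genes held a match, beside 7840 of 35116 windows (22.3%) over all genes. Besides ABCB1, the genes with a match that were measured in both RNAs everywhere were ABCA10 and ABCD4. A match is a sequence and not a bound site.

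In subfamily A, ABCA8 was high in GATA1 4-14 and ABCA5 and ABCA1, with dim control RNA, in GATA1 5-13. ABCA8, known for lipid and sterol export, lies on chromosome 17 in a row with ABCA9, ABCA6, ABCA10 and ABCA5. Its probe (A_23_P118615, chr17:64377445-64377504, hg18) gave log2 ratios near 0 for GATA1 5-13, -0.14 and -0.01, and high ones for GATA1 4-14, 1.15 and 1.45. ABCA8 RNA was at 247% of GATA1 Neg in GATA1 4-14 and at 94.8% in GATA1 5-13, with both RNAs well above background on all 4 arrays. The mean of 0.61 ± 0.98 (SD, n = 2 clones) did not pass limma's test (adjusted p = 0.756), although the error-weighted mean called it.

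The next gene, ABCA9 (A_24_P241672, chr17:64483888-64490318, hg18), had ratios of 0.48 and 0.56 in GATA1 4-14. There the clone's RNA passed the background mark on 1 of 2 arrays and the control RNA on 0. With the control RNA counted at no less than the lowest level so marked, the clone was 1.23-fold higher, which is not a strict limit. In GATA1 5-13, neither RNA of ABCA9 was well above background. ABCA6 was never well above background, and ABCA10, measured in both RNAs everywhere, had 0.17 in GATA1 5-13 and 0.07 in GATA1 4-14. The ABCA10 probe also lists the accession of ABCA11, so that it does not separate them.

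ABCA5, a lysosomal transporter, was higher in GATA1 5-13 at the probe A_23_P78018 (chr17:64755125-64755184, hg18), with log2 ratios of 0.86 and 1.23. There the clone's RNA passed the background mark on 2 of 2 arrays and the control RNA on 1 of 2. In GATA1 4-14 neither RNA was, and no fold is given. The other ABCA5 probe, A_24_P67096, had 0.08 and 0.06 in GATA1 5-13 with both RNAs above background on 1 of 2 arrays, so that the ABCA5 probes disagreed in size. The value of the probe A_23_P78018 in GATA1 5-13, 1.05, was 0.42 without background correction and 1.94 with the deposited log ratios, and that of A_24_P67096, 0.07, was -0.11 with median centring. The 5 probes of 3 other genes within 500 kb of the row had medians of -0.05 in GATA1 5-13, with a range of -0.17 to 0.74, and of 0.0014 in GATA1 4-14, with a range of -0.08 to 0.17.

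**Figure D4:**
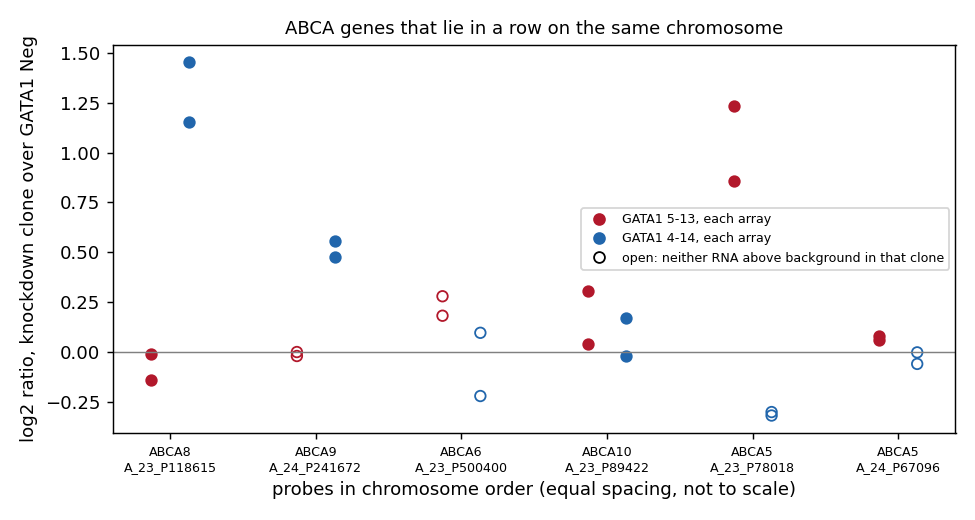
Log2 ratios of each array (y axis) are plotted for the probes of the ABCA genes on chromosome 17, in chromosome order with equal spacing (x axis), with GATA1 5-13 in red and GATA1 4-14 in blue. Open circles mark a clone in which neither RNA was well above background. ABCA8 and ABCA9 at the left are high in GATA1 4-14 (1.30 and 0.52), and 1 probe of ABCA5 at the right is high in GATA1 5-13 (1.05).

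ABCA1, which exports cholesterol to apolipoprotein A-I, gave log2 ratios of 0.62 and 0.81 for GATA1 5-13 and 0.22 and 0.25 for GATA1 4-14 at the probe A_24_P235429 (chr9:106583525-106583584, hg18). In GATA1 5-13 the clone's RNA passed the background mark on 2 of 2 arrays and the control RNA on 0. With the control RNA counted at no less than the lowest level so marked, the clone was 1.48-fold higher, which is not a strict limit. In GATA1 4-14 neither RNA was. The other 2 probes of ABCA1 were never well above background.

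Several ABC genes with more than 1 probe gave the same sign in a clone at every probe. ABCB10, ABCC4, ABCC5 and ABCD3 did not meet the rule for genes to be named and were chosen after their values were seen. All their probes had both RNAs well above background on all 4 arrays.

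ABCB10, an inner mitochondrial membrane transporter of heme-forming cells that was first described as induced by GATA1, was higher than GATA1 Neg at 4 of 4 probes and on all 4 arrays. In GATA1 5-13 its array values ran from 0.28 to 0.67 and in GATA1 4-14 from 0.06 to 0.35. The mean over its probes was 0.42 ± 0.07 (SD over 4 probes) in GATA1 5-13, 133% of GATA1 Neg, and 0.17 ± 0.06 in GATA1 4-14, 112%. The adjusted p of limma's test was 0.623 to 0.687. The 4 probes share the gene and the RNA and are not replicates.

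ABCC4 (MRP4), an exporter of cyclic nucleotides that is also found in platelet granules, was lower at 3 of 3 probes and on all 4 arrays. Its array values ran from -0.41 to -0.01 in GATA1 5-13 and from -0.45 to -0.07 in GATA1 4-14. The mean over its probes was -0.20 ± 0.10 (SD over 3 probes) and -0.28 ± 0.09, at 87.2% and 82.5% of GATA1 Neg. The probe with the smallest p was A_24_P222291, with a mean of -0.31 ± 0.05 (SD, n = 2 clones) and an adjusted p of 0.576 in limma's test.

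ABCC5 (MRP5), another exporter of cyclic nucleotides, was higher at 2 of 2 probes on all 4 arrays, with the larger values in GATA1 5-13. Its array values ran from 0.30 to 0.65 in GATA1 5-13 and from 0.0094 to 0.23 in GATA1 4-14, and the probe means were 136% and 106% of GATA1 Neg. For its probes the adjusted p of limma's test was 0.683 and 0.717.

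ABCD3 (PMP70), which carries fatty acyl-CoA into peroxisomes, was lower in GATA1 5-13 at both probes and slightly higher in GATA1 4-14. The arrays of GATA1 5-13 gave -0.64 and -0.38 at the probe A_23_P74794 and -0.38 and -0.28 at A_24_P221154. Those of GATA1 4-14 gave 0.04 and 0.25, and 0.04 and 0.02. Over both probes ABCD3 was at 74.8% of GATA1 Neg in GATA1 5-13 and at 106% in GATA1 4-14. The 4 probes of 4 other genes within 500 kb of ABCD3 had medians of -0.23 and -0.07.

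**Figure D5:**
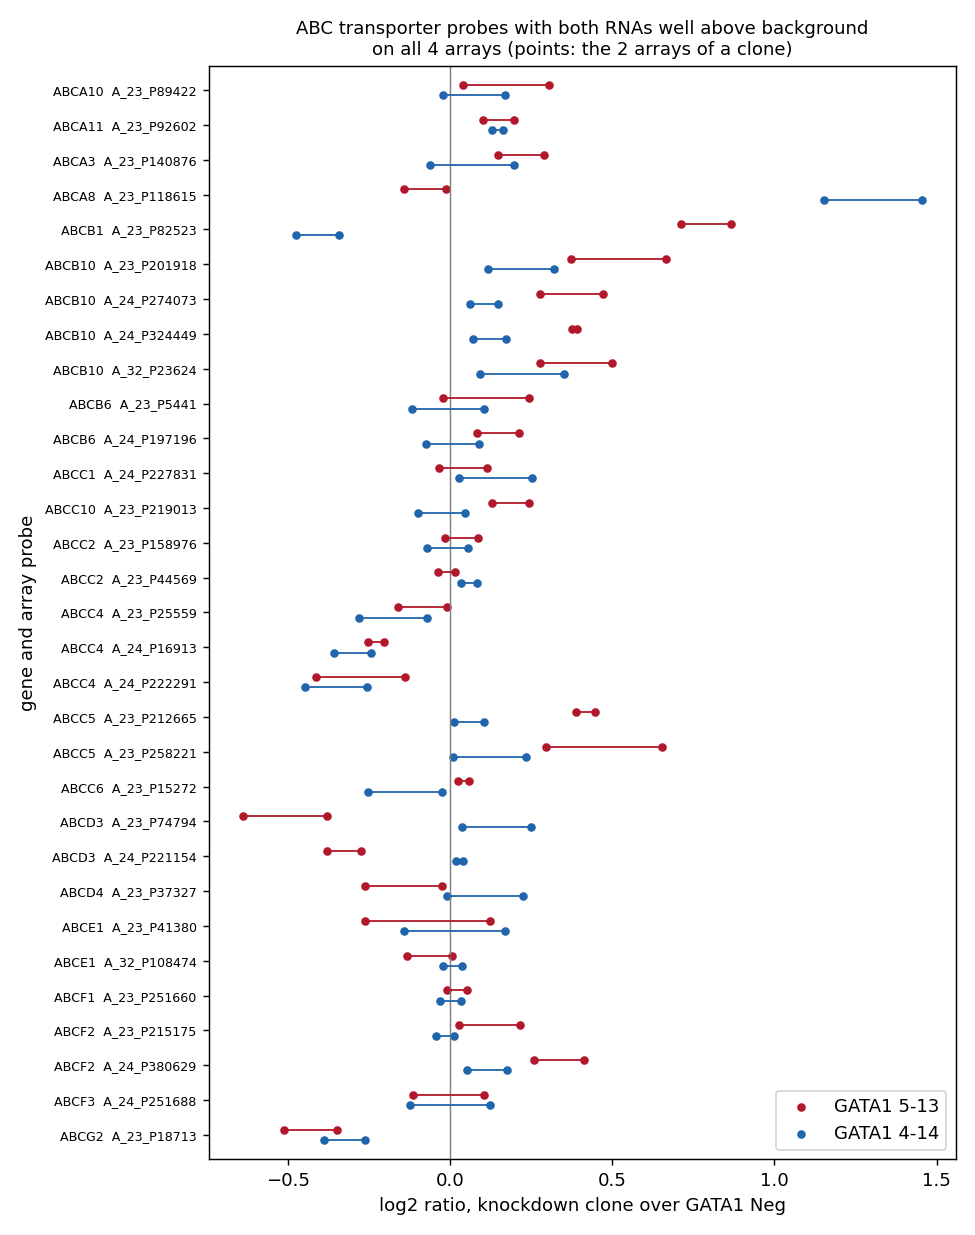
Log2 ratios of each array (x axis) are plotted for 31 of the 33 ABC transporter probes (y axis) with both RNAs well above background on all 4 arrays, with GATA1 5-13 in red, GATA1 4-14 in blue and a line joining the arrays of a clone. The lines of ABCB1 lie on opposite sides of 0, the 4 probes of ABCB10 lie to the right of 0 and the 3 probes of ABCC4 and that of ABCG2 to the left.

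The direction over all 4 arrays was counted next. Of the 68 probes, 5 (7.35%) were lower on all 4 arrays, the 3 of ABCC4, ABCG2 and ABCG8, beside 13.4% of all probes, and 13 (19.1%) of 8 genes were higher, beside 12.8%. Among the 33 probes measured everywhere, 4 (12.1%) were lower and 8 (24.2%) higher, beside 16.8% and 15.9% of all such probes. The 8 were the 4 of ABCB10, the 2 of ABCC5, 1 of ABCF2 and that of ABCA11. A further 8 probes were higher in GATA1 5-13 and lower in GATA1 4-14 on every array (8.03% of all probes), and 4 the reverse (7.86%). Of the 33 measured everywhere, 2 were higher in GATA1 5-13 and lower in GATA1 4-14 (9.27% of all such probes) and 3 the reverse (9.31%), together 15.2% beside 18.6%.

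Other measured members were as follows. ABCB6, a porphyrin transporter, averaged 0.13 (log2) over its 2 probes for GATA1 5-13 and 0.00053 for GATA1 4-14. ABCA3, a lipid transporter of lung surfactant, had 0.22 and 0.07, and ABCA11, now the pseudogene ABCA11P, had 0.15 in both clones. ABCC2 (MRP2), an exporter of conjugates, had 0.01 and 0.02 over 2 probes, and ABCC10 had 0.19 and -0.03.

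ABCE1, which recycles ribosomes, had -0.07 and 0.01 over 2 probes. ABCF2 had 0.34 and 0.11 at the probe A_24_P380629 and 0.12 and -0.02 at A_23_P215175, while ABCF1, which binds an initiation factor, had 0.02 and 0.00044 and ABCF3 -0.0061 and -0.00058. ABCD4, which acts in lysosomal cobalamin release, had -0.14 and 0.11. ABCC6 had 0.04 and -0.14 at its measured probe, and near-identical pseudogene copies of ABCC6 exist, so that this value is uncertain. ABCA7 was well above background in GATA1 Neg but not in GATA1 4-14, where its arrays gave -0.08 and -0.19. ABCA2 was above background in 1 array of GATA1 5-13 only. ABCB8 had 0.18 in GATA1 5-13, with the control RNA above background on 1 of 2 arrays, and ABCC13, a pseudogene, had 0.05 there at 1 probe with both RNAs above background on 1 of 2 arrays.

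The 34 genes listed as regulators or partners of ABC transporters gave the setting. They include nuclear receptors and other regulators of ABC genes, acceptors of exported lipid, and ABC proteins that carry other symbols (TAP1, TAP2 and CFTR), and 28 of them were above background on at least 1 array. Of their 60 probes, 0 passed limma's test after adjustment, 2 were lower and 0 higher at an unadjusted p of 0.005 (0.574% and 0.327% of all probes), and 5 were lower and 2 higher at an unadjusted p under 0.05 (4.04% and 3.38% of all probes). Those lower under 0.05 were every probe of PPARA and 1 of MYLIP, so that most stand for the same gene. Those higher were of NFE2L2 and TAP1. The median of these 60 log2 ratios was 0.0053 for GATA1 5-13 and 0.01 for GATA1 4-14. The 2 probes at 0.005 were of PPARA, the nuclear receptor of fatty acid oxidation, with -0.58 and -0.53 at one and -0.57 and -0.70 at the other (limma, adjusted p = 0.467 and 0.479).

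TAP1, the ABC peptide transporter of antigen presentation, had 0.64 in GATA1 5-13 and 0.33 in GATA1 4-14 (limma, adjusted p = 0.602), while its partner TAP2 had 0.27 and 0.02 at its measured probe. CFTR, the chloride channel of the C subfamily, was never well above background.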

How the data were processed

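RNA of 2 Meg-01 clones was compared with GATA1 Neg on 4 arrays, and samples were grouped by the clone named in the labels. Linear spot intensity with its local background, not yet normalized, was deposited by the authors for each array. The scanner software was Feature Extraction (version 9.5.3.1), and probes are placed on hg18. That program also subtracted background and normalized dyes to make the deposited log10 ratio per spot, with an error score from its error model as deposited, and the authors' series-wide table holds these log10 ratios with every array set to clone over control. The deposited p-value of each spot, from 1 array, was not used in any result, and no table of combined arrays was used.

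With limma 3.58.1 in R 4.3.3 and data.table (version 1.17.8), intensities were corrected by normexp (offset 50) and loess within arrays, control and outlier spots were left out, and spots of a probe and then both arrays of each clone were averaged. The mean of the 2 clones was tested against 0 with a two-sided moderated test, adjusted by Benjamini-Hochberg over 40974 probes and called at 0.05. The p-values measure the spread between 2 clones, and that of GATA1 Neg was not measured. A probe counted as well above background where the scanner marked at least 0.5 of its spots so. Where only 1 RNA was, the dim RNA was counted at no less than the lowest level so marked, after Aquantile. Other dim probes can lie above that level, so that such folds are not strict limits. Precision is limited by the number of arrays, and there were 0 saturated spots. Of the 68 probes, the accessions of 65 matched a RefSeq table (GRCh38.p14), which was used for names and promoter sequences.

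Named were every probe of ABCB1, ABCC1 and ABCG2 and every ABC gene at an unadjusted p of 0.005 or at least 1.5-fold changed in a clone with the same sign on both arrays and the brighter RNA above background. The members, lists and tests were chosen with earlier results of these data known. The alternatives were no background correction, the deposited log ratios, outlier spots kept, Aquantile, median centring, an intensity trend, a dim-probe filter, an error-weighted mean, the 4 arrays taken as 4 values (no block, or the replicate number as a block), and each array and clone left out. Aquantile leaves log ratios unchanged, so that its results could not differ. The alternatives for ABCB10, ABCC4, ABCC5 and ABCD3, for each clone's value and for probes measured everywhere were chosen after seeing the data. The ChIP-on-chip experiment was not used here, and the single values of 2 measured members are not reported here.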

Additional observations from a re-analysis of the deposited data

Results flagged for a closer look

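At 5 probes of 4 ABC transporter genes with both RNAs well above background everywhere, both arrays of GATA1 5-13 and both of GATA1 4-14 moved in opposite directions against GATA1 Neg. The difference between the clones was not tested at any of them. ABCB1 stood at 0.79 (log2 ratio) for GATA1 5-13 and at -0.41 for GATA1 4-14. ABCA8 had -0.078 and 1.30, of which the value in GATA1 5-13 is small. ABCD3 had -0.51 and 0.14 at the probe A_23_P74794 and -0.33 and 0.030 at A_24_P221154. ABCC6 had 0.042 and -0.14. Among all probes measured in both RNAs everywhere, 18.6% had opposite signs in the clones on all 4 arrays, and among the ABC transporter probes 15.2% had.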

How the results depend on the processing

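No ABC transporter probe passed an adjusted p of 0.05 or an unadjusted p of 0.005 under any background correction, normalization, filter, intensity trend or left-out array. Of all probes, only 0 or 1 passed the adjusted threshold and 249 to 532 the unadjusted one under these settings, left-out arrays aside. For 68 probes, 0 is near that share. With the 4 arrays as 4 values and no replicate block, 2 ABC transporter probes passed the adjusted threshold and 3 the unadjusted one. With the replicate block, 0 and 4 did. Of all 40974 probes, 1240 without and 269 with the block passed after adjustment, and 2209 and 1776 at the unadjusted p. The labels give the clones the same replicate numbers, which mark the dye orientation, and same-numbered arrays deviated together (correlation 0.773), which does not show shared cultures. The deviations are from the mean of a clone's arrays, so that both pairs of arrays give this same value. The error-weighted mean called 10 ABC transporter probes at both thresholds, beside 3531 of all 40974 probes after adjustment and 3629 at the unadjusted p. At least 1.5-fold changes in GATA1 5-13 numbered 3, but 1 without background correction, 7 with the deposited log ratios and the series-wide values, 1 with the filter on dim probes, and 4 to 5 with an array left out, the 5 without GATA1 5-13 replicate 1. In GATA1 4-14 there was 1, but 4 with the deposited log ratios and the series-wide values, and 1 with either array left out. The share of all probes at least 1.5-fold changed was not counted under these alternatives, so that these counts are not a result about the ABC transporters alone. The median of GATA1 5-13, 0.04, was 0.0070 without background correction and 0.0198 with the deposited log ratios and the series-wide values. It was 0.0330 to 0.0483 with an array left out. The median of GATA1 4-14, 0.0052, was 0.0215 with the filter on dim probes, and -0.00031 to 0.0188 with an array left out, the higher value without GATA1 4-14 replicate 1. With a clone left out, a value without a test, the mean turned to -0.078 for ABCA8 (without GATA1 4-14), and without GATA1 5-13 to -0.41 for ABCB1 and to 0.14 and 0.030 for the ABCD3 probes A_23_P74794 and A_24_P221154. The value of ABCB1 in each clone kept its sign under every alternative for the clone's value (0.71 to 0.87 and -0.47 to -0.34), and that of ABCA8 in GATA1 4-14 ran from 0.84 to 1.52. The adjusted p of ABCG2 ran from 0.00145 to 0.605, of ABCB1 from 1.547e-05 to 1, of ABCA8 from 3.26e-06 to 0.843, of the ABCB10 probe A_23_P201918 from 0.00714 to 0.744, of the ABCC4 probe A_24_P222291 from 0.0227 to 0.772 and of the ABCC5 probe A_23_P258221 from 0.0466 to 0.796, each lowest with the error-weighted mean. The causes of these changes were not tested. Dim signal limits 35 of the 68 probes.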
